A study of Macaca fascicularis with 2 samples.

Results

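The interferon regulatory factors, the interferon receptors and a set of interferon stimulated genes were compared between 2 RNA sequencing libraries of gastrocnemius, a calf muscle, from the cynomolgus macaque, Macaca fascicularis. Chow diet is the label of the lean library, and high fat diet that of the non-lean one. The labels give no age, genotype or number of animals behind either library, and no further agent. Members were taken from a list of 48 gene symbols. Of these, 46 of the 28175 genes named in the files were found by symbol, and all 46 had a count. They comprise 9 transcription factors (8 interferon regulatory factors, IRF, and STAT2), 4 receptor subunits, and 33 effectors, in which the RNA sensors are included. GBP1 was present only under a placeholder symbol and is described with the GTPases below. IFITM3 was not matched and is not analysed here.

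Interferons are secreted proteins that cells release on sensing viral or misplaced nucleic acid. Type I interferons bind the receptor of IFNAR1 and IFNAR2, and interferon gamma binds that of IFNGR1 and IFNGR2. Receptor-bound kinases then activate STAT proteins. STAT2 and IRF9 belong to the complex that binds the interferon stimulated response element, and other IRF proteins bind related elements. The stimulated genes encode proteins that degrade, edit or trap viral RNA, or that alter membranes and protein modification. In muscle, IRF4 has also been studied as a metabolic regulator, and the title of the series names it.

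The libraries held 15983348 (lean) and 12731974 (non-lean) counts, and wherever a pair of values is given the lean library comes first. The muscle markers ACTA1, CKM and TTN were abundant in both libraries, with 1223115 and 804023 counts for ACTA1. With 1 library per group no difference below has a replicate check, and no test between groups was made. Each ratio compares these libraries, not the diets. Levels are given as scaled CPM, each gene's share of its library after scaling the libraries to each other, and a difference as a log2 ratio, positive where the non-lean library was higher. Brackets hold its 95% interval, which covers counting error only. A gene counts as tested where its scaled CPM averaged at least 1, and 13707 genes passed. All 9 factors, all 4 receptor subunits and 27 of 33 effectors passed. The others, OASL, GBP2, ISG15, XAF1, ISG20 and SAMD9, had between 1 and 18 counts per library.

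Most members were somewhat lower in the non-lean library, and few were far apart. Of the 40 tested members, 28 had a ratio below 0 and 12 above. Among all 13707 tested genes, 6965 lay below 0 and 6742 above. IRF4, OAS1 and HERC6 were at least 2-fold higher with an interval above 0, which is 7.50% of tested members, beside 4.91% of all tested genes. IRF8, IFNAR2, OAS2, MX2 and USP18 were at least 2-fold lower with an interval below 0, which is 12.5% of tested members, beside 7.16% of all tested genes. All 8 had a mean scaled CPM under 5, where such calls are more frequent. Among tested genes under that level, 10.8% were called higher and 12.1% lower, and of the 24 members under it 12.5% and 20.8%. IRF4 and OAS1 reached the level for testing only through the non-lean library, being under 1 CPM in the lean one, and IRF8 and USP18 only through the lean library. Without any filter, the same numbers of 3 and 5 were counted among all 46 members. At any fold, the intervals of 17 members lay below 0 and those of 5 above, or 42.5% and 12.5%, beside 28.8% and 25.8% of all tested genes. When libraries were scaled by total counts instead, these numbers were 13 and 6.

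**Figure D1:**
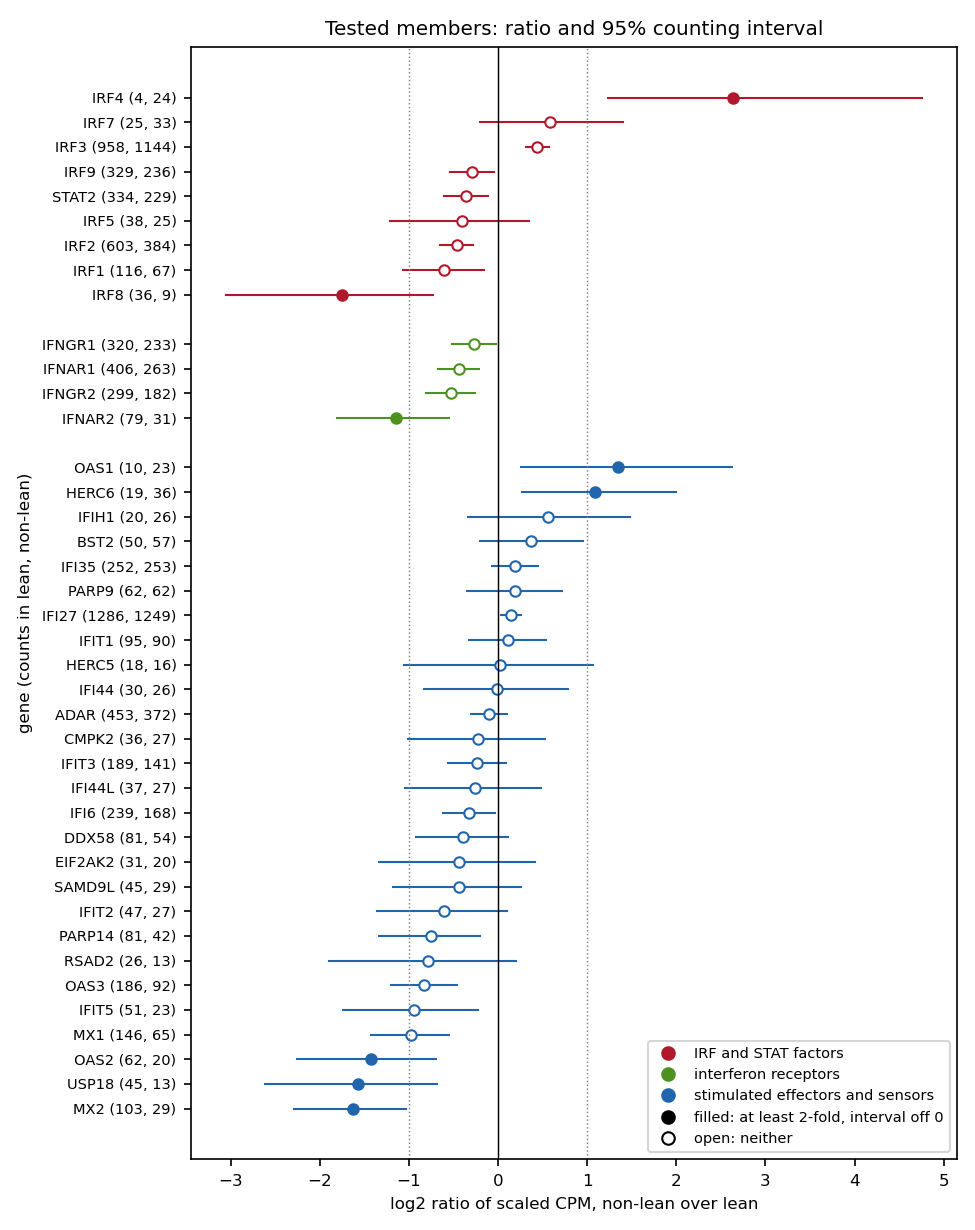
Log2 ratio of scaled CPM, non-lean over lean (x axis), for the 40 tested members (y axis, with the counts in the lean and non-lean library), where bars are 95% counting intervals and dotted lines mark 2-fold. Filled points are the 8 members at least 2-fold apart with an interval off 0, from IRF4 at 2.63 to IRF8 at -1.76, and all 4 receptor subunits lie left of 0.

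The 9 factors did not move as a group. IRF4, a factor of lymphocytes and macrophages, had 4 and 24 counts. Its scaled CPM was 0.263 and 1.79, and its log2 ratio was 2.63 [1.23, 4.76]. IRF8, the family member closest to IRF4, which drives myeloid and dendritic cell development, went the other way with 36 and 9 counts and a ratio of -1.76 [-3.05, -0.73]. IRF4 thus made up 10.0% (95% exact interval 2.79 to 23.7) of the lean and 72.7% (54.5 to 86.7) of the non-lean counts of this pair, a share that does not depend on scaling. The pair was chosen after its values were seen, and it rests on 40 and 33 counts.

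IRF3, the factor that first turns on type I interferon genes after nucleic acid sensing, was the only other factor whose interval lay above 0. It had 958 and 1144 counts, a scaled CPM of 62.9 and 85.5 and a ratio of 0.44 [0.32, 0.57]. IRF3 accounted for 45.4% (43.3 to 47.6) of the lean and 59.5% (57.3 to 61.7) of the non-lean counts of the 8 IRF genes. IRF7, which amplifies the type I response, was at 0.58 [-0.21, 1.40], an interval that held 0, with 25 and 33 counts.

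IRF1, an activator that interferon gamma induces, had 116 and 67 counts and a ratio of -0.60 [-1.06, -0.16]. IRF2, which competes with IRF1 for its sites, had 603 and 384 counts and a ratio of -0.46 [-0.65, -0.28]. STAT2 and IRF9, which act together in the type I response, were slightly lower. STAT2 had 334 and 229 counts at -0.36 [-0.61, -0.11], and IRF9 had 329 and 236 counts at -0.29 [-0.54, -0.05]. Their intervals held 0 with total counts, where the ratios were -0.22 and -0.15. IRF5, a factor of myeloid cells, had 38 and 25 counts and a ratio of -0.41 [-1.21, 0.35]. The median of the 9 factors was -0.36, while their summed scaled CPM was nearly equal at 160.5 and 160.9. IRF3 was higher where the other abundant factors were lower, so the sum and the median differ.

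All 4 receptor subunits were lower in the non-lean library, under each of the 3 scalings. As scaled here, all 4 intervals lay below 0 (100%, beside 28.8% of all tested genes). IFNAR2, the high-affinity subunit of the type I receptor, had 79 and 31 counts and was 2.22-fold lower at -1.15 [-1.81, -0.55]. Its partner IFNAR1 had 406 and 263 counts at -0.44 [-0.67, -0.21]. For the gamma receptor, the signalling subunit IFNGR2 had 299 and 182 counts at -0.53 [-0.80, -0.26], and the ligand-binding subunit IFNGR1 had 320 and 233 counts at -0.27 [-0.52, -0.02]. The interval of IFNGR1 held 0 with total counts, at -0.13. The median of the receptors was -0.48, and their summed scaled CPM was 72.5 and 53.0.

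**Figure D2:**
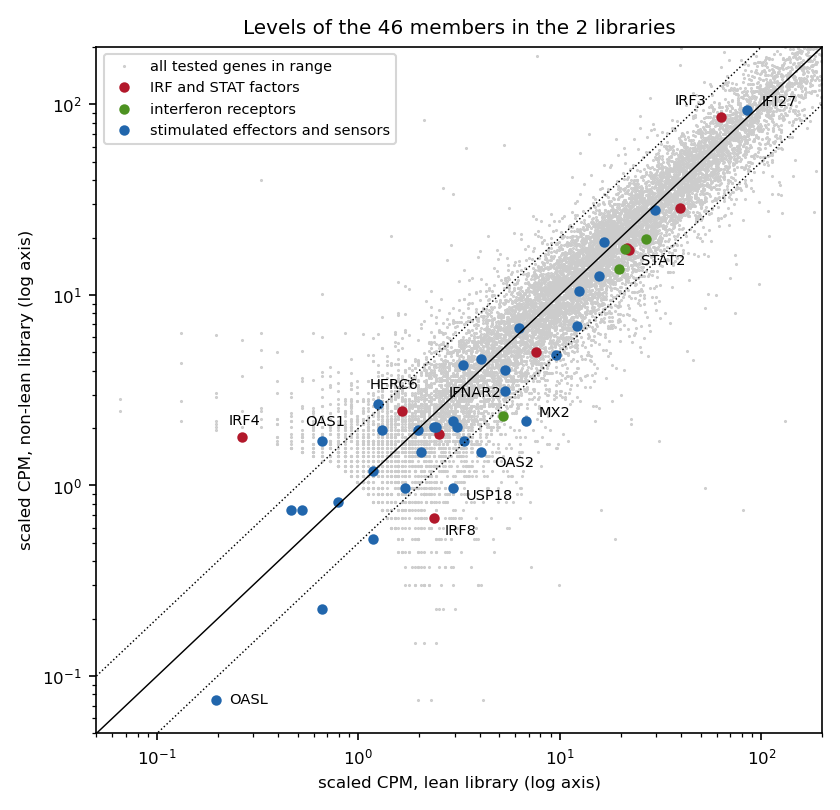
Scaled CPM in the lean (x axis) and non-lean library (y axis), both on log axes, for the 46 members in colour and tested genes within the range in grey, where the solid line marks equal levels and dotted lines 2-fold. CPM is not corrected for transcript length, so positions compare libraries and not genes. IRF4 at 0.263 and 1.79 CPM stands above the upper dotted line, and MX2, IRF8 and USP18 stand below the lower one.

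The 27 tested effectors had a median of -0.26, between the medians of the factors at -0.36 and of all tested genes at -0.01. Intervals lay below 0 for 8 effectors (29.6%, beside 28.8% of all tested genes), above 0 for 3 (11.1%, beside 25.8%) and held 0 for 16. The summed scaled CPM of the 33 effectors was 246.9 and 227.5, with a log2 ratio of -0.12 [-0.19, -0.05]. IFI27, a small hydrophobic protein, gave 34.2% of the lean and 41.1% of the non-lean counts of this class. It had 1286 and 1249 counts and a ratio of 0.14 [0.03, 0.26]. Without IFI27 the ratio of the sum was -0.28 [-0.37, -0.19].

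The MX proteins are dynamin-like GTPases that block viral nucleocapsids, and both were lower. MX2 had 103 and 29 counts and was 3.08-fold lower at -1.62 [-2.29, -1.04]. MX1, its neighbour in the reference gene order, had 146 and 65 counts at -0.97 [-1.43, -0.55]. Among guanylate-binding proteins, which interferon gamma induces strongly, GBP2 had 18 and 7 counts and a ratio of -1.12 [-2.68, 0.15]. GBP1, taken by its RefSeq name, had 73 and 75 counts and a ratio of 0.23 [-0.26, 0.71]. The intervals of both GBP genes held 0. GBP6, outside the member list, had 50 and 80 counts at 0.86 [0.34, 1.40].

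The oligoadenylate synthetases, which make the activator of the antiviral nuclease RNase L, diverged although OAS1, OAS3 and OAS2 lie next to each other in that order in the reference. OAS1 had 10 and 23 counts and was 2.55-fold higher at 1.35 [0.26, 2.62]. OAS2 had 62 and 20 counts and was 2.68-fold lower at -1.42 [-2.25, -0.70]. OAS3 had 186 and 92 counts at -0.83 [-1.21, -0.46]. OAS1 made up 3.88% (1.87 to 7.01) of the lean and 17.0% (11.1 to 24.5) of the non-lean counts of the 3 genes. These intervals do not overlap, and how often that happens in other gene families was not examined. OASL had 3 counts and 1 count, too few for a fold.

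Genes of ISG15 conjugation also went different ways. ISG15, a ubiquitin-like protein, had 12 and 11 counts. USP18, the protease that removes ISG15 and dampens the type I receptor, had 45 and 13 counts and was 2.96-fold lower at -1.57 [-2.62, -0.69]. HERC5, the main ISG15 ligase in humans, had 18 and 16 counts and a ratio of 0.02 [-1.05, 1.07], while its neighbour and relative HERC6 had 19 and 36 counts and was higher at 1.09 [0.27, 1.99]. HERC6 made up 51.4% (34.4 to 68.1) of the lean and 69.2% (54.9 to 81.3) of the non-lean counts of the pair, and these intervals overlap. UBE2L6, the enzyme that passes ISG15 to its ligase, and UBA7, which activates it, are outside the member list. UBE2L6 had 49 and 21 counts at -1.02 [-1.85, -0.27], and UBA7 had 107 and 92 at -0.03 [-0.45, 0.38].

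**Figure D3:**
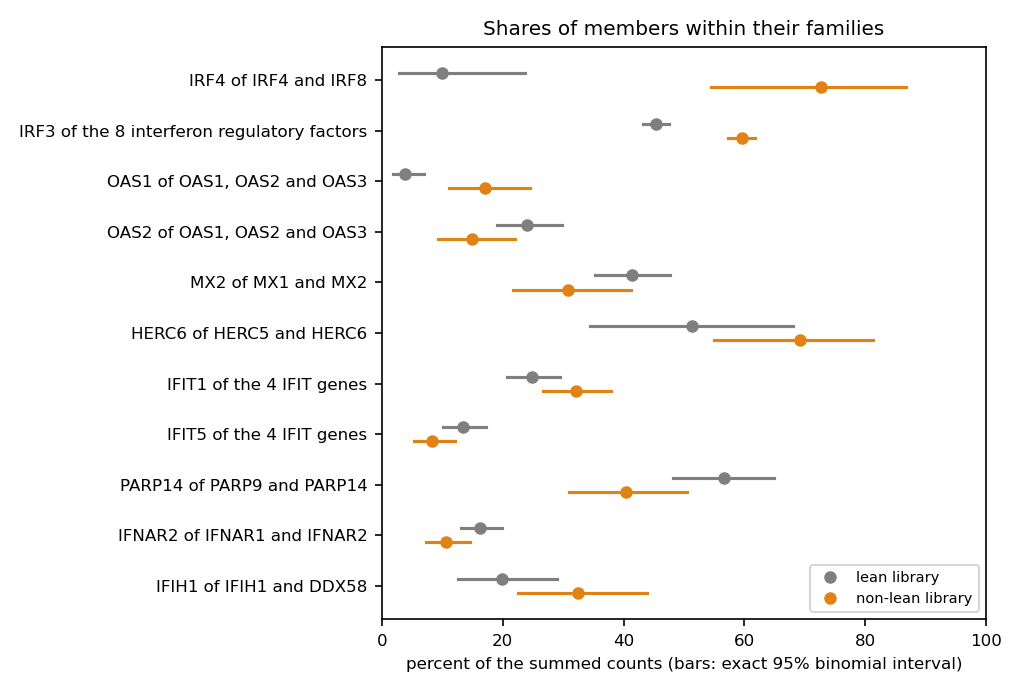
Percent of the summed counts of a family that came from 1 member (x axis) in the lean (grey) and non-lean library (orange), where points are shares and bars exact 95% binomial intervals. The intervals of IRF4 within the pair with IRF8, of IRF3 among the 8 IRF genes and of OAS1 among 3 OAS genes do not overlap between libraries, and the other 8 shares have intervals that do. The families shown were chosen with the values known. Of the shares not drawn, those of IFI27 among all effectors and of IRF4 among the 8 IRF genes also do not overlap, and the others do. How often such shares fail to overlap in other gene families was not examined.

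The IFIT proteins, which bind foreign RNA ends, had a median of -0.42, and 3 of 4 ratios lay below 0. IFIT5 had 51 and 23 counts at -0.95 [-1.74, -0.23] and was the only one whose interval left 0. IFIT2 had 47 and 27 counts at -0.60 [-1.35, 0.10], and IFIT3 had 189 and 141 at -0.23 [-0.56, 0.09]. IFIT1 had 95 and 90 counts at 0.11 [-0.32, 0.54]. The RNA sensors IFIH1 and DDX58, which detect long and short double-stranded RNA in the cytosol, had ratios of 0.56 [-0.33, 1.48] and -0.39 [-0.92, 0.12]. Counts were 20 and 26 for IFIH1 and 81 and 54 for DDX58.

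Among effectors that act on RNA, ADAR, which edits adenosine in double-stranded RNA, was at -0.10 [-0.30, 0.10] with 453 and 372 counts, and at 0.04 with total counts. The kinase EIF2AK2, which halts translation on sensing double-stranded RNA, had 31 and 20 counts at -0.43 [-1.33, 0.41]. The exonuclease ISG20 had 7 and 10 counts.

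Of the 5 tested effectors at membranes and mitochondria, the intervals of 3 held 0. IFI27, given above, was the higher one of the other two, and IFI6 the lower. IFI6, which protects membranes from viral remodelling, had 239 and 168 counts at -0.32 [-0.62, -0.03], an interval that held 0 with total counts. BST2, which tethers budding virions, had 50 and 57 counts at 0.37 [-0.20, 0.95]. RSAD2, which makes a chain-terminating nucleotide, had 26 and 13 counts at -0.79 [-1.90, 0.20]. CMPK2, a mitochondrial nucleotide kinase whose gene overlaps RSAD2 in the reference, had 36 and 27 counts at -0.22 [-1.01, 0.53]. XAF1, a proapoptotic protein, had 10 and 3 counts at -1.40 [-4.05, 0.41].

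Of the remaining effectors, only PARP14, an ADP-ribosyltransferase, had an interval off 0, with 81 and 42 counts at -0.75 [-1.34, -0.21]. Its relative PARP9 had 62 counts in each library at 0.19 [-0.35, 0.72]. DTX3L, the ubiquitin ligase that partners PARP9, is outside the member list and had 55 and 11 counts at -2.08 [-3.22, -1.18]. PARP9 and DTX3L overlap in the reference, as RSAD2 and CMPK2 do, and how reads in such overlaps were assigned is not given in the sources used here. IFI35, IFI44, IFI44L, SAMD9 and SAMD9L had ratios from -0.44 for SAMD9L to 0.49 for SAMD9, and each of their intervals held 0. With total counts the interval of IFI35 lay above 0, at 0.33. HERC5, ADAR and IFI44 were the tested members whose sign depended on the scaling.

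Interferon transcripts themselves were at or near 0. Of 6 interferon genes matched by symbol, IFNB1, IFNE, IFNK, IFNW1 and IFNL1 had 0 counts in both libraries, and IFNG had 1 count in the lean library. A count of 0 allows up to 3 counts, a level of 0.197 and 0.224 CPM. The interferon alpha genes were not matched and are not analysed here.

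Other signalling genes of the pathway were mostly lower. Of 11 tested receptor, kinase, STAT and IRF-binding genes, 7 had intervals below 0 (63.6%, beside 28.8% of all tested genes) and none above, with a median of -0.55, and none was at least 2-fold apart. The receptor kinases JAK1 and JAK2 were at -0.35 [-0.48, -0.21] and -0.55 [-0.89, -0.21], while TYK2, the kinase bound to IFNAR1, was at 0.10 [-0.08, 0.29]. The highest was IRF2BP1, another IRF2 corepressor, at 0.11 [-0.07, 0.28]. The lowest were the IRF2 corepressor IRF2BPL at -0.97 [-1.14, -0.81], the lambda interferon receptor subunit IFNLR1 at -0.89 and STAT3 at -0.88. Of 11 tested negative regulators 6 had intervals below 0 (54.5%, beside 28.8%) and 1 above (9.09%, beside 25.8%). The cytokine signalling inhibitors SOCS3, with 343 and 28 counts, and CISH, with 1636 and 713, were at -3.40 and -1.01. SOCS1, the main inhibitor of the gamma receptor, had 17 and 8 counts, and the phosphatase PTPN2 was higher at 0.79 [0.46, 1.13].

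Among 17 tested genes of nucleic acid sensing, 7 intervals lay below 0 (41.2%, beside 28.8% of all tested genes) and 2 above (11.8%, beside 25.8%). The adaptor MYD88 was lowest with 61 and 27 counts at -0.97 [-1.70, -0.31]. The kinase TBK1, which phosphorylates IRF3, was highest with 94 and 146 counts at 0.82 [0.44, 1.21]. The adaptors MAVS and STING1 (TMEM173 in the files) were at -0.67 and -0.77. A wider list of interferon stimulated genes outside the members had 53 tested genes, with a median of -0.28. Of their intervals, 23 lay below 0 (43.4%, beside 28.8%) and 8 above (15.1%, beside 25.8%). Some genes sit both in this list and in the sensing or signalling list, so the counts of these lists are not separate. At least 2-fold apart were 6 lower genes (11.3%, beside 7.16% of all tested genes) and 1 higher gene (1.89%, beside 4.91%). The higher gene was the large ubiquitin ligase RNF213, with 378 and 1163 counts at 1.81 [1.64, 1.98]. Antigen presentation genes mostly stayed near the centre, though 1 was at least 2-fold lower (5.26%, beside 7.16% of all tested genes). Of 19 tested, 16 intervals held 0 and 3 lay below (15.8%, beside 28.8%). The median was -0.09, or 0.05 with total counts. The light chain B2M had 3239 and 2730 counts at -0.06 [-0.13, 0.01], and CD74 had 6238 and 5434 at -0.01 [-0.07, 0.04].

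**Figure D4:**
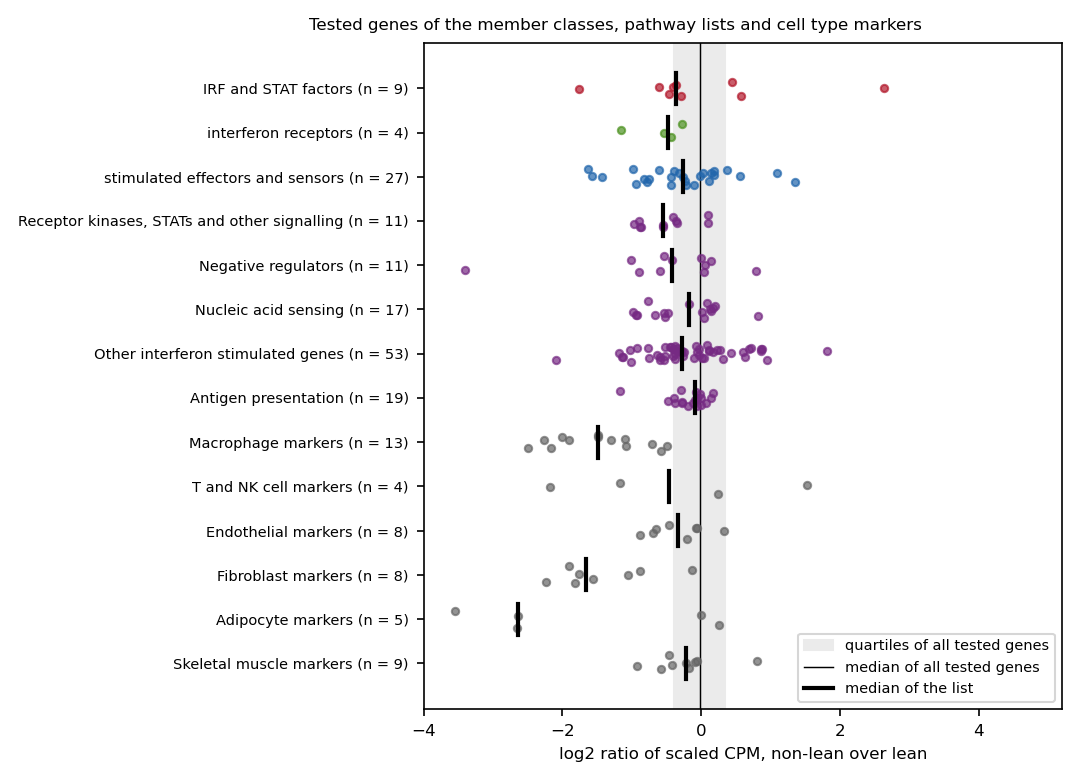
Log2 ratios, non-lean over lean (x axis), of the tested genes in the 3 member classes, 5 pathway lists and 6 cell type marker lists (y axis), where each point is a gene, thick bars are list medians and the grey band spans the quartiles of all tested genes, -0.39 to 0.34. Vertical scatter within a list carries no value. Member medians of -0.36, -0.48 and -0.26 lie nearer to 0 than the macrophage median of -1.48.

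Markers of other cell types moved beside these genes. In bulk tissue, fewer cells of a type and less RNA per cell cannot be told apart. Of 13 tested macrophage markers all had ratios below 0, and 10 were at least 2-fold lower (76.9%, beside 7.16% of all tested genes). The summed scaled CPM of the list was 142.6 and 43.8. Members known from myeloid cells include IRF8 and IRF5, which were lower, though the interval of IRF5 held 0. They also include IRF4, which was higher. The part of macrophage RNA in the ratios of these 3 was not tested. Fibroblast markers had a summed scaled CPM of 1089 and 490, and endothelial markers one of 312.7 and 261.4. Of 9 skeletal muscle markers, 8 had intervals below 0 (88.9%, beside 28.8% of all tested genes), and that of MB lay above. Their counts are so high that counting intervals leave 0 even at small ratios, so these 2 percentages are not alike. Some of these ratios lie nearer to 0 than the 0.14 by which total counts lift them. The median of the muscle markers was -0.22, or -0.08 with total counts, and the log2 ratio of their sum was -0.40. Adipocyte markers diverged, with a median of -2.64 over 5 tested genes. ADIPOQ had 46 and 3 counts, PLIN1 166 and 23 and CIDEC 96 and 13, while FABP4 had 368 and 388 and CFD 1651 and 1453.

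Lymphocyte markers were scarce. Of 13 T and NK cell markers found, 4 were tested, and the summed scaled CPM of the 13 was 16.8 and 10.3. CD4, which macrophages also express, had 136 and 26 of these counts, and without it the sum was 7.89 and 8.38, a choice made after the values were seen. PTPRC, the common leukocyte gene, had 29 and 11 counts. CD3D had 7 and 6 counts, CD3E 14 and 11, and the cytotoxic genes GZMB and PRF1 had 8 and 21 and 3 and 11. For B and plasma cells, MS4A1 and CD79A had 0 counts in both libraries, and JCHAIN had 32 and 4, with a summed scaled CPM of 3.48 and 1.20. The plasmacytoid dendritic cell markers CLEC4C and LILRA4 had 0 counts in both. Of all 8 dendritic cell markers, 6 had a count and only 1 was tested, at 0.20 with an interval above 0. IRF4 was higher in the library in which the summed markers of B and plasma cells were lower. That sum held 53 and 16 counts, of which JCHAIN gave 32 and 4. The 4 tested T and NK cell markers went different ways. GZMB was at least 2-fold higher, CD4 and PTPRC were at least 2-fold lower, and 1 interval held 0. The part of any of these cells in the IRF4 ratio was not tested.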

How the data were processed

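Per the file headers and values, the authors deposited 1 expected count per RefSeq transcript, an estimate that can be fractional. Upstream tools, per the submitters' processing notes, include Trim Galore 0.6.6, RSEM 1.3.3 and STAR 2.7.8a, with no roles stated, and neither genome build nor annotation is given in the sources used here. Polyadenylated RNA was read on a BGISEQ-500, per the labels' protocols, and no strand-marking step is named. In the reference, 18 members overlap another gene and 8 a protein coding gene.

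Values of all transcripts of a gene were added and the sum rounded. Of the symbols, 24 had become dates and were separated by accession where possible. Scaling used edgeR 4.0.16 (R 4.3.3) and its trimmed mean of M-values, with factors of 0.952 (lean) and 1.05 (non-lean). Ratios used a prior count of 0.5, and intervals are exact Clopper-Pearson intervals of the split of a gene's counts, computed in Python 3.11.15 with scipy 1.17.1. One count is 0.0657 CPM (lean) or 0.0748 CPM (non-lean). Intervals and floors cover only counting error and treat counts as independent. PCR copies are not independent, and the error of assigning reads to transcripts is left out, so the intervals can be too narrow. The calculation was run on simulated counts that varied by counting error only, the error the intervals assume. That run checks the computation and cannot show how animals or preparations vary. Gene neighbours and names came from a RefSeq gene table of T2T-MFA8v1.1, which held 47 of the 48 symbols (DDX58 as RIGI).

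The members and lists were chosen with earlier results of these data known. Every member could be named, with the highest, lowest and most abundant genes of each list beside them and JAK1, JAK2, TYK2, SOCS1 and SOCS3 in any case. UBE2L6, UBA7, MAVS, STING1, GBP6, PTPRC, CD3D, CD3E and PRF1 fall outside that rule and were named after their values were seen. Alternatives were total counts, DESeq2 1.42.0 size factors, other filters and prior counts, rounding per transcript, GBP1 by its RefSeq name, and calls by interval alone. List counts and medians include 2 genes whose own values are not reported here.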

Additional observations from a re-analysis of the deposited data

How the results depend on the processing

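Of the 40 tested members, no ratio whose interval excluded 0 changed sign under the 4 alternatives that recompute ratios, which are total counts, DESeq2 size factors, a prior count of 2 and rounding per transcript. Total counts lift the median of all tested genes by 0.14 on the log2 scale. They moved the medians of factors, receptors and effectors to -0.22, -0.34 and -0.12, and IRF3 and IFI27 beyond their intervals, to 0.58 and 0.29. When the mean had to reach 5 CPM, only 16 members were tested, and 0 were at least 2-fold higher and 0 lower, since all 8 such members lie under that level. With calls by interval alone, 5 members were higher and 17 lower. DESeq2 size factors gave 3 higher and 6 lower, with MX1 at -1.01 added. The remaining alternatives left 3 higher and 5 lower. No paired analysis was possible because each group has 1 library, and for the same reason no replicate could be left out. Depth limits the lowest members most, as IRF4 rests on 28 counts, OAS1 on 33 and IRF8 on 45, and 6 members were under the level for testing.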

Other observations

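The division of counts among transcript models differed between the libraries for several members. Among tested genes with more than 1 model and at least 20 counts in each library, the model with the most counts in the lean library was not the leading one in the non-lean library for 8 of 21 members (38.1%), beside 26.7% of 7951 genes. The leading lean model had 0 counts in the non-lean library for 4 of these members (19%), beside 9.22% of all such genes. The 4 were IRF5, IFIT1, MX1 and SAMD9L. Tested members had a median mean scaled CPM of 4.00, beside 11.84 for all tested genes. These shares were not compared at like levels, and the part of low counts in them was not tested. For IFIT1, 1 model held all 95 lean counts and another all 90 non-lean counts. For SAMD9L, 1 model held all 45 lean counts and another all 29 non-lean counts. For MX1, the leading lean model held 89.6 of its counts and was at 0 in the non-lean library, where another model held 55.7. The abundant members IRF3 and IFI27 also had another leading model. That of IRF3 in the lean library had 386.6 and 194.2 counts, and that in the non-lean library 373.2 and 539.5. For IFI27 these were 894.2 and 513.2, and 172.9 and 635.4. IRF4 had all its counts on the same 1 of 3 models in both libraries, and ADAR kept 92.5% and 88.7% on the same model. The division is an estimate made by the authors' counting, and its error is not given in the sources used here.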
